A study of Mus musculus with 48 samples.

Results

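Mouse embryonic stem cells whose Mll3 and Mll4 lack catalytic activity (dCD) were compared with wild-type cells (WT), with 3 RNA libraries a side. The comparison covered all genes with a level of at least 1 TPM, a read count scaled for gene length and library depth, in at least 3 of the 6 libraries. They numbered 15513 of the 48321 rows in the table, and the other 32808 rows lay below that minimum. The 6 libraries come from a series of 48 samples that also holds other assays and a line with Mll3 and Mll4 knocked out (dKO). All 3 lines derive from male R1 embryonic stem cells of strain 129SV and were grown without serum in 2i+LIF, which is LIF with inhibitors of the kinases MEK and GSK3, on laminin-coated and then fibronectin-coated plastic. The labels give the genotypes as wild-type, Mll3/4 dCD and Mll3/4 dKO, and do not give the changed residues. A single line is named for each genotype, and nothing says that replicates came from cultures grown apart. The p-values therefore describe the spread among these libraries, and that spread may be technical. A clone's own differences and those of its genotype cannot be told apart.

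Mll3 and Mll4, encoded by Kmt2c and Kmt2d, are large histone methyltransferases that place the single methyl group on lysine 4 of histone H3 (H3K4) found at enhancers. They work within a complex with shared subunits such as Wdr5, Ash2l and Rbbp5 and with their own subunits, among them Ncoa6 and the H3K27 demethylase Utx (Kdm6a). A catalytically deficient line lets loss of the enzyme activity be examined while the proteins are still encoded, and the series title names enhancer RNA synthesis and promoter elongation apart from H3K4 monomethylation as its subject.

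Depth ranged from 21090624 to 40519709 reads in WT and from 31833673 to 56249770 reads in dCD. Across genes, which are not independent replicates, libraries of one line correlated at r of 0.995 to 0.996 and libraries of the 2 lines at 0.962 to 0.966. Pairs of libraries of one line differed by more than counting error, with chi-square values per degree of freedom of 1.91 to 4.58. The first principal component, holding 85.2% of the variance, separated the lines, and the second held 4.8%.

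Among genes that changed at least 2-fold, more rose than fell in dCD, and the rises reached further. By limma on log2(TPM + 1), 1118 genes (7.21% of those tested) met both an adjusted p below 0.05 and a 2-fold change, of which 743 (4.79%) were higher and 375 (2.42%) lower in dCD. Of these 1118 genes, 1113 had dCD libraries that did not overlap the WT libraries, against 64.9% of all tested genes (31.7% higher and 33.2% lower). The calls were made on the same values, so this lack of overlap is not separate support. With the adjusted p as the only threshold there were 9086 genes (58.6%), split into 4445 higher (28.7%) and 4641 lower (29.9%), and 87.7% of these changed less than 2-fold. Counts of list members given below at either threshold are to be read against these shares of all tested genes. The median log2 fold change of all tested genes was -0.01, with a median standard error (SE) of 0.0577. A log2 fold change of at least 2 was reached by 172 rising and 27 falling genes, and one of at least 3 by 34 rising genes and 1 falling gene.

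Part of the calls follows from the minimum, since a gene under 1 TPM in every library of one line could be tested only where the other line was higher. Of the tested genes, 541 had passed the minimum through the dCD libraries only, and 308 of those were called higher. A further 222 had passed through WT only, and 68 of those were called lower. Among the other 14750 genes, 435 were higher and 307 lower at least 2-fold. The median level of those 435 genes was 3.23 TPM in WT and 12.9 TPM in dCD, and that of the 307 lower genes 12 and 3.89 TPM. Counting all called genes, those higher at least 2-fold made up 0.517% of all transcripts in WT and 1.91% in dCD, and the lower genes 0.891% and 0.323%. The share of genes called higher was 9.03% of the 2292 genes at up to 2 TPM, 9.4% of the 2372 between 2 and 5 TPM and 0.885% of the 904 genes above 200 TPM. Without the genes that passed through 1 line only, these shares were 0.603%, 5.83% and 0.775%, so the share at up to 2 TPM came almost wholly from such genes. Counts and medians of the gene lists below include such genes and so follow in part from the minimum. In all 3 WT libraries 61 genes lay under 1 TPM while all 3 dCD libraries held at least 5 TPM, against 2 genes with the reverse pattern, Adgrg6 and D630039A03Rik.

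**Figure D1:**
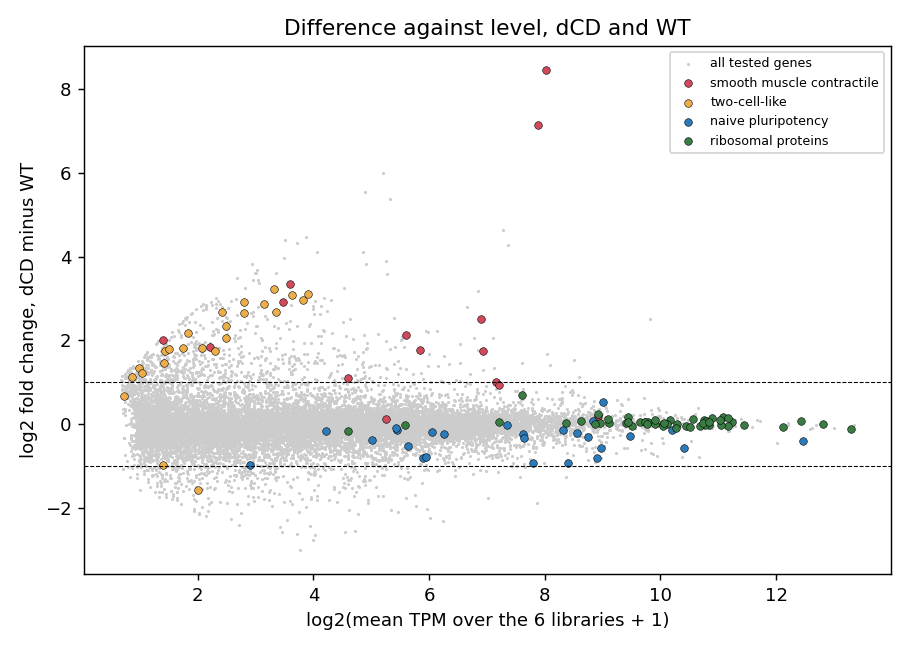
Log2 fold change of dCD against WT for each of the 15513 tested genes (y axis) against its mean level over the 6 libraries (x axis, log2 of TPM + 1), all genes in grey, 4 gene lists in colour and dashed lines at 2-fold. Rises reach further from 0 than falls, and the ribosomal protein genes lie close to 0.

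The genes of the targeted enzymes were still transcribed in dCD. Kmt2c was at 21.6, 19.7 and 21.9 TPM in the WT libraries and at 28.6, 25.3 and 27 TPM in those of dCD, and rose by a log2 fold change of 0.34 (SE 0.0582, adjusted p = 0.00112). Kmt2d was at 67.4, 65.2 and 66.6 TPM in the WT libraries and at 67.2, 54.6 and 67.8 TPM in those of dCD, groups that overlapped (log2 fold change -0.08, SE 0.0748, adjusted p = 0.408). RNA levels do not show whether the catalytic change is present, and here they show only that RNA of neither gene was lost. In dKO Kmt2c measured 8, 7.55 and 7.44 TPM and Kmt2d 84.8, 80.5 and 83.5 TPM. Kmt2d RNA therefore does not tell a kept gene from a knocked-out one in this series.

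Among the 10 H3K4 methyltransferase genes, 5 rose at the adjusted p alone, none fell and 1 passed 2-fold. That gene was Setd7, a monomethyltransferase outside the Mll family, which was at 3.47, 3.26 and 3.30 TPM in the WT libraries and at 13.9, 13.3 and 13.6 TPM in those of dCD (log2 fold change 1.75, SE 0.0564, adjusted p = 6.18e-08). No dCD library came near the WT range. Of 11 tested subunits of the Mll3/4 and related complexes, 3 rose and 5 fell at the adjusted p alone, none by 2-fold. Their log2 fold changes ran from -0.29 for Wdr82, a subunit of the Set1 complexes, to 0.35 for Ncoa6, the subunit found with Mll3 and Mll4. The 13 acetyltransferase and demethylase genes held 3 that rose and 3 that fell at the adjusted p alone. Over all tested genes the shares were 28.7% and 29.9%, so neither count stands out. Among those that fell were the acetyltransferase genes Kat2b at -0.60 and Kat2a at -0.22. Of 29 Polycomb genes 14 rose and 9 fell at the adjusted p alone, none by 2-fold, and the largest rise was that of Rbbp7, a histone-binding subunit, at 0.91.

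Smooth muscle and actin genes held the largest rises of the whole comparison. Of 15 tested smooth muscle contractile genes 12 rose at least 2-fold and all 15 rose at the adjusted p alone, with a median log2 fold change of 1.83 against -0.01 over all genes. Serum response factor (Srf) switches on many muscle and cytoskeletal genes through the CArG box, working with the actin-sensing coactivators Mkl1 and Mkl2 or, in smooth muscle, with myocardin. Of 29 SRF and actin cytoskeleton genes, 8 rose at least 2-fold, 23 rose and 3 fell at the adjusted p alone, and the median was 0.44. The 2 lists held 20 genes called higher at least 2-fold, of which 17 had a promoter in the RefSeq table (GRCm38.p6) and 6 had a CArG box between 250 bases before and 50 bases after the start site: Acta1, Actc1, Myl9, Fhl2, Cnn2 and Actg1. Counted by gene, the CArG box was in 1.81% of all 27025 genes of that table and in 1.58% of tested genes. It was also in 10 of all 27 tested SRF and actin cytoskeleton genes with an entry (37%), called or not, and that list was chosen as Srf targets, so the count says nothing about which of them rose. Fhl2 had a box in 2 of its promoters, Acta2 had no match in its window, and Tagln has no entry. Only CC, then 6 letters of A or T, then GG was counted as a box. A box that departs from this pattern would be missed, in Acta2 as elsewhere. A match describes letters and does not show a bound site.

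The 250 bases before the start site are shown for the 4 of these genes with the largest rises, since they show where the shared element lies, with the CArG box in capitals.
Acta1, chr8:123894776-123895025, minus strand: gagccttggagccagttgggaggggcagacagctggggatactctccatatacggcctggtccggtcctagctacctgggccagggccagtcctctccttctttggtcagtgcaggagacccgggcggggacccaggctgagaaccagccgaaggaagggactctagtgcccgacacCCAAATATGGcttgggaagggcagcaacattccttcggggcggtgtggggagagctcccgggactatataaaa
Actc1, chr2:114052876-114053125, minus strand: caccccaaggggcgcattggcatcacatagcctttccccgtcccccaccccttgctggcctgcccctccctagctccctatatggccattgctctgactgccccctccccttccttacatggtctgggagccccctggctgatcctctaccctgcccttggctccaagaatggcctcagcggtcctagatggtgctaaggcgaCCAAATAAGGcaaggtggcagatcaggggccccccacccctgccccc
Myl9, chr2:156775214-156775463, plus strand: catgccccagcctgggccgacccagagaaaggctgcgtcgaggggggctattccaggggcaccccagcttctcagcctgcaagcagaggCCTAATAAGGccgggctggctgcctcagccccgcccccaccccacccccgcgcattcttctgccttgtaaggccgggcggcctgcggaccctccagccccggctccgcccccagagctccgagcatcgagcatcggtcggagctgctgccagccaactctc
Fhl2, chr1:43196762-43197011, minus strand: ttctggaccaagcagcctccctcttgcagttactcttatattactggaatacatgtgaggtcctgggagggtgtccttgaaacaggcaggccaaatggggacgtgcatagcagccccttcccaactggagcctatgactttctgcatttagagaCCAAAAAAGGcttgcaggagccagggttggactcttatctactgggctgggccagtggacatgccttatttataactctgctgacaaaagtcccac
The first base of the box lay 73 bases before the start in Acta1, 47 in Actc1, 161 in Myl9 and 96 in Fhl2.

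Acta2, the smooth muscle actin, was at 0.433, 0.501 and 0.529 TPM in the WT libraries and at 525, 542 and 493 TPM in those of dCD (log2 fold change 8.45, SE 0.0471, adjusted p = 6.01e-12). Tagln, an actin-binding protein of smooth muscle, was at 3, 2.15 and 1.98 TPM in the WT libraries and at 464, 488 and 451 TPM in those of dCD (log2 fold change 7.13, SE 0.0979). Acta1, the skeletal muscle actin, was at 0.0897, 0.340 and 0 TPM in the WT libraries and at 72.2, 71.2 and 70.2 TPM in those of dCD (log2 fold change 5.99, SE 0.101). Acta2 and Acta1 were under 1 TPM in each WT library, Tagln lay above 1 TPM there with 20 to 42 reads a library, and the dCD libraries of each gene lay close together. Actc1, the cardiac actin, had no read in WT and 790 reads over the 3 dCD libraries, where it measured 12.6, 15.5 and 11.9 TPM. Against a floor of 3 reads over the WT libraries it was at least 185-fold higher. Myl9, a myosin light chain, was at 1.11, 1.19 and 1.22 TPM in the WT libraries and at 22.5, 19.3 and 21.0 TPM in those of dCD. In bulk RNA, more cells of a type and more RNA per cell cannot be told apart.

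The rest of the contractile list moved less. Tpm1, a tropomyosin, was at 34.2, 35.0 and 34.0 TPM in the WT libraries and at 202, 208 and 196 TPM in those of dCD (log2 fold change 2.52), and the calponin gene Cnn1 had a log2 fold change of 2.92. Of the actin cytoskeleton genes, the filamin Flnc rose by 2.55, the focal adhesion gene Zyx by 2.43 and Tgfb1i1 by 2.80 on the log2 scale. The cytoplasmic actin Actg1 was at 701, 700 and 686 TPM in the WT libraries and at 1409.5, 1450.1 and 1399.4 TPM in those of dCD, while Actb had a log2 fold change of 0.11 (adjusted p = 0.0795). Srf itself was at 67.9, 66.9 and 64.3 TPM in the WT libraries and at 82.6, 83.4 and 90.2 TPM in those of dCD, Mkl1 had a log2 fold change of 0.04 and Mkl2 0.04, both short of the threshold. Myocd, which encodes myocardin, was below the minimum and so not tested, at 0, 0 and 0.0489 TPM in the WT libraries and at 0.760, 0.755 and 0.853 TPM in those of dCD. The SRF and actin cytoskeleton list held fallers too, with Vil1 at -0.56 and Fhl1 at -0.52.

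Beside these values, 7 markers of smooth muscle cells summed to 40.6 to 41.8 TPM in WT and to 1010.6 to 1093.2 TPM in dCD. Most of the dCD sum was Acta2 and Tagln, already given above, so the sum is not a separate result. Most of the WT sum was Smtn, which moved little. It was at 36.1, 35.3 and 35.1 TPM in the WT libraries and at 39.1, 36.6 and 40.5 TPM in those of dCD. Myh11, the smooth muscle myosin heavy chain, was also below the minimum, at 0.116, 0.122 and 0.118 TPM in the WT libraries and at 0.903, 1.06 and 0.809 TPM in those of dCD. In both untested genes every dCD library lay above every WT library. Of 16 fibroblast and feeder markers 8 were tested, 7 of which rose and 1 fell, and their sum ran from 115 to 120.2 TPM in WT and from 128 to 134 TPM in dCD. Most of that sum was Fbln1, the marker that fell, at 89.8, 87.8 and 92.6 TPM in the WT libraries and at 72.9, 71.8 and 76.9 TPM in those of dCD. Among the 7 that rose, Col1a1 went from 0.548, 0.383 and 0.479 to 7.53, 7.64 and 7.55 TPM, Col1a2 from 0.0310, 0.0131 and 0.0126 to 6.79, 6.19 and 6.38 TPM and Pdgfrb from 6.69, 5.17 and 5.88 to 11.2, 10.8 and 11.4 TPM. Of the untested markers, Prrx1 was at 0.0116, 0.0366 and 0 TPM in the WT libraries against 0.608, 0.569 and 0.410 TPM in those of dCD, and Dcn at 0.0617, 0.0778 and 0.151 against 0.486, 0.495 and 0.481 TPM. Lum was at 0 in all dCD libraries, and Fap, Postn and Twist2 reached at most 0.0326, 0.154 and 0.0976 TPM there. The part of other cell types in the smooth muscle result was not tested.

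**Figure D2:**
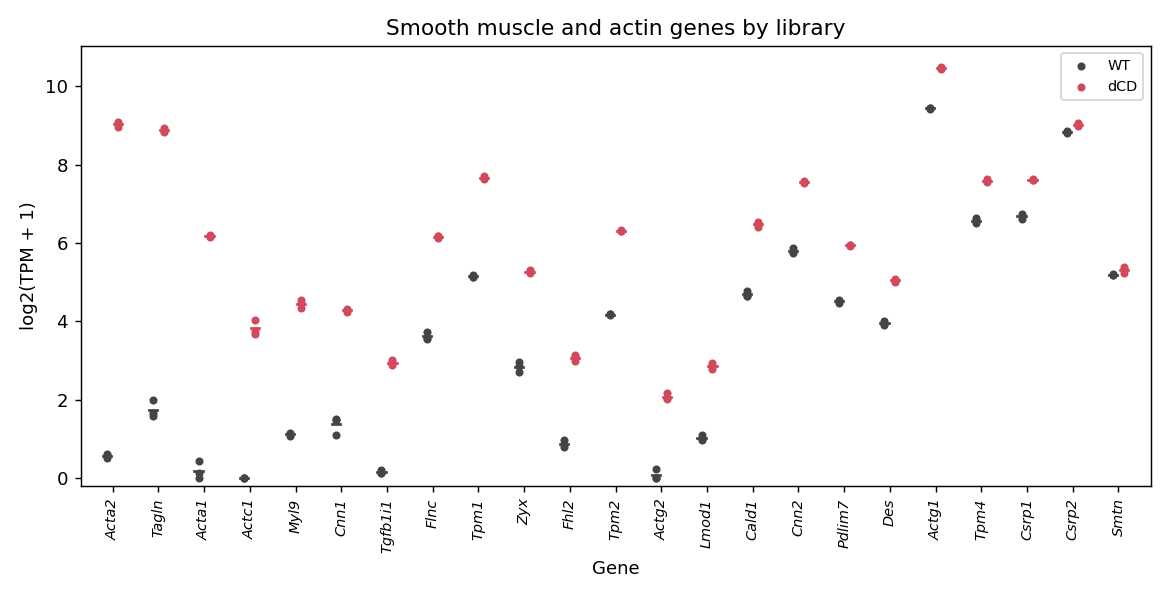
Level of smooth muscle and actin genes (y axis, log2 of TPM + 1) by gene, with 1 point per library and a short line at the mean of each line's 3 libraries. Acta2, Tagln and Acta1 lie furthest apart, and Smtn and Csrp2 least.

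Targets of the transcriptional coactivator Yap, which acts with Tead factors on growth and adhesion genes, rose, and the pathway's kinase genes had smaller differences. Of 25 Yap and Tead genes 5 rose at least 2-fold, 17 rose and 2 fell at the adjusted p alone, and the median was 0.36. The secreted target Cyr61 was at 22.7, 24.4 and 25.4 TPM in the WT libraries and at 177, 168 and 182 TPM in those of dCD, and Ctgf, its relative, 19.2, 19.9 and 19.7 against 72.1, 74.5 and 73.1 TPM. A further target, Ankrd1, was at 0, 0.0459 and 0 TPM in WT and at 2.77, 2.87 and 3.04 TPM in dCD. In each of these genes the lowest dCD library lay above the highest WT library. The rule for naming 2-fold genes required this, and 31.7% of all tested genes met it. Amot, a Yap-binding scaffold, had a log2 fold change of 2.17 and Vgll3, a Tead cofactor, 2.02. Yap1 itself rose by 0.63, the kinase gene Lats2 by 0.77, and Stk3, Stk4 and Lats1 did not pass the test. The Tead motif CATTCC, on either strand, was in the promoters of 12 of 20 listed genes with an entry, called or not (14 of 25 promoters). It was in 14.7% of all promoters of the same length and in 12.3% of those of tested genes. The list was chosen as Yap and Tead genes, so the count says nothing about which of them rose.

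Genes of the interstitial matrix rose widely. Of 35 listed members 29 were tested. Among these 14 rose at least 2-fold, 22 rose and 5 fell at the adjusted p alone, and the median was 0.89. Thbs1, Tnc, Col5a2, Col1a2, Lox and Col1a1 were under 1 TPM in every WT library, so they were tested only because dCD was higher. The count and the median thus follow in part from the minimum. Thbs1, a secreted adhesion protein, was at 0.212, 0.280 and 0.259 TPM in the WT libraries and at 58.0, 55.4 and 57.1 TPM in those of dCD (log2 fold change 5.53, SE 0.0555, adjusted p = 3.90e-10). Tenascin C (Tnc) was at 0.0496, 0.0104 and 0.0404 TPM in the WT libraries and at 20.6, 21.5 and 20.4 TPM in those of dCD (log2 fold change 4.40, SE 0.0695). Collagen genes followed, with Col5a2 at 3.62, Col1a2 at 2.87 and Col1a1 at 2.55, and so did the crosslinking enzyme Lox at 2.64 and the elastic fibre gene Fbn2 at 2.64. Fn1, fibronectin, which also coated the dishes, fell by 0.13, and osteopontin (Spp1) fell by 0.56. Basement membrane genes were split: of 27 tested members of that list with integrins, 5 rose and 2 fell at least 2-fold. Col4a1 went from 104, 99.5 and 104 TPM to 290, 281 and 285 TPM and its neighbour Col4a2 from 51.5, 49.7 and 52.2 to 178, 174 and 177 TPM. The laminin gene Lama3 fell by 1.53 on the log2 scale.

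Simple epithelial keratins rose together. Krt18 was at 14.7, 13.5 and 16.9 TPM in the WT libraries and at 313, 321 and 299 TPM in those of dCD, and its partner Krt8 20.9, 22 and 22.9 against 205, 213 and 197 TPM. Krt19 was at 2.91, 3.41 and 3.90 TPM in the WT libraries and at 40.6, 41.2 and 40.4 TPM in those of dCD. The log2 fold changes were 4.29 for Krt18, 3.17 for Krt8 and 3.25 for Krt19. For each of these keratins every dCD library lay above every WT library. The rule for naming 2-fold genes required this, and 31.7% of all tested genes met it. The keratin and junction list as a whole was mixed, with 6 of 27 members higher and 1 lower at least 2-fold and a median of 0.09. Cdh3, a cadherin, fell from 16.7, 16.7 and 16.8 TPM to 5.38, 5.56 and 5.28 TPM, while E-cadherin (Cdh1) rose by 0.77. Of 9 mesenchymal factors and cadherins tested, 3 rose at least 2-fold: N-cadherin (Cdh2) at 1.64, the E-cadherin repressor Snai1 at 1.61 and Zeb2 at 1.34. Vimentin (Vim) fell by 0.33.

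Trophoblast genes, which mark the placental lineage, were led by Gata factors and imprinted or placental genes. Of 21 tested 10 rose and 1 fell at least 2-fold, with a median of 0.35. Gata3 was at 3.13, 3.53 and 3.36 TPM in the WT libraries and at 21.7, 19.6 and 21.8 TPM in those of dCD, and Gata2 3.36, 3.44 and 2.71 against 16.7, 16.0 and 16.0 TPM. Peg10, a retrotransposon-derived imprinted gene needed for the placenta, was at 279.6, 275 and 257 TPM in the WT libraries and at 1643, 1435 and 1538 TPM in those of dCD. Cdx2, a trophoblast determinant, had a log2 fold change of 1.69, while Eomes was at 0.01 and Elf5, Tpbpa and Prl3d1 were below the minimum. Tpbpa and Prl3d1, markers of the differentiated placenta, were at 0 in all 6 libraries. The 7 trophoblast markers summed to 10.6 to 11.1 TPM in WT and 34.8 to 35.1 TPM in dCD, and their part in the result was not tested. Of 18 Rhox genes with values, an X-linked homeobox cluster of the reproductive tract and placenta, 5 were tested and 4 of these rose at least 2-fold. Among these, Rhox9 was under 1 TPM in every WT library and was tested only because dCD was higher. Below the minimum, Rhox3a and Rhox4a were at 0 in all 6 libraries, while Rhox2a reached 1.40 TPM in dCD. Rhox6 was at 1.65, 0.723 and 0.467 TPM in the WT libraries and at 74.5, 80.3 and 76.9 TPM in those of dCD, and Rhox5 155, 143 and 150 against 401, 389 and 401 TPM.

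Genes of primitive and visceral endoderm held 8 rises and 1 fall of at least 2-fold among 18 tested, with a median of 0.85. They included endocytic genes, with the adaptor Dab2 going from 0.560, 0.464 and 0.364 to 14.4, 14.2 and 13.8 TPM and the receptor Lrp2 from 10.3, 9.52 and 9.89 to 48.3, 45.4 and 47.0 TPM, and the transcriptional coregulator Cited1, from 3.74, 4.21 and 4.03 to 24.2, 24.3 and 24.9 TPM. Of the lineage's transcription factors, Gata6 rose by 0.91, Sox17 by 0.43, and Gata4 and Sox7 did not pass the test. Hnf4a, the visceral endoderm regulator, fell by 1.62 on the log2 scale. Afp and Ttr, which define mature visceral endoderm, reached at most 0.0350 and 0.0483 TPM, and the 6 endoderm markers summed to 8.43 to 10.1 TPM in WT and 12.2 to 14.5 TPM in dCD.

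Genes of the two-cell-like state, which resembles the cleavage-stage embryo and is found in rare stem cells, rose as a group. Of 24 tested members 21 rose and 1 fell at least 2-fold, with a median log2 fold change of 1.95, which was 3.36 by voom on recovered reads. Their summed level ran from 24.7 to 27 TPM in WT and from 201.6 to 208.2 TPM in dCD. Members such as Gm12794, Tcstv1 and Zfp352 were under 1 TPM in every WT library and were tested only because dCD was higher. The count and the median thus follow in part from the minimum. The Zscan4 genes lie side by side and are similar in sequence, so reads could be split between copies. Single values are therefore uncertain, and the copies do not count as independent members. To show how alike the copies are, the 250 bases before the start of 2 of them follow (RefSeq, GRCm38.p6), with TATAAA in capitals.
Zscan4c, chr7:11005495-11005744, plus strand: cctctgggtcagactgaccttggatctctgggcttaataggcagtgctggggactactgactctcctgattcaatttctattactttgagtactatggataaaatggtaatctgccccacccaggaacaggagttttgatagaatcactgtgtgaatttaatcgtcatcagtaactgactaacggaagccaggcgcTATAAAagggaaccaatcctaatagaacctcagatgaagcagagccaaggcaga
Zscan4d, chr7:11166149-11166398, minus strand: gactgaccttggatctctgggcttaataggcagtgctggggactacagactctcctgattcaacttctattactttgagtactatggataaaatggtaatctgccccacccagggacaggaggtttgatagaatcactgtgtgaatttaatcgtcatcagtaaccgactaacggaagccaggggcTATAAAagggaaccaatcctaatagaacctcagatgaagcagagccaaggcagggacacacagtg
The 2 sequences were identical at 233 of 261 aligned columns (89.27%), and the 6 pairs among Zscan4b, Zscan4c, Zscan4d and Zscan4f ranged from 73.59% to 94.8%. TATAAA, on either strand, was in 7 of 13 promoters of two-cell-like genes called higher with an entry. It was in 7 of 17 promoters of all tested ones, against 13.6% of all promoters and 7.25% of those of tested genes. Promoters of the alike Zscan4 copies are among the 7, so these are not independent and the count shows no enrichment.

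Zscan4d was at 1.38, 2.01 and 1.5 TPM in the WT libraries and at 20.6, 21.6 and 21.2 TPM in those of dCD, and Zscan4c 1.13, 1.39 and 0.828 against 14.0, 15.1 and 14.3 TPM. Usp17le, a deubiquitinase of the same state, was at 1.16, 0.775 and 0.870 TPM in the WT libraries and at 17.2, 16.7 and 17.4 TPM in those of dCD (log2 fold change 3.23, SE 0.0855, adjusted p = 2.37e-08). Duxf3, the homeobox activator of the state, rose from 0.191, 0.361 and 0.175 TPM to 3.11, 2.99 and 3.34 TPM. No dCD library of these 4 genes overlapped a WT library. The rule for naming 2-fold genes required this, and 31.7% of all tested genes were higher without overlap. The exceptions were the Prame-like genes Pramel7, which fell by 1.56, and Pramel6, which fell by 0.97 on the log2 scale. Arg2, an arginase, rose by 2.19.

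Some of the called genes were neighbours. In the order of a GRCm38 gene table, 18 runs of at least 3 neighbouring tested genes were all called higher at least 2-fold (76 genes), and 5 runs were all called lower (15 genes). These 91 genes were 8.67% of the 1050 called genes with a position in that table. The largest was a run of 12 genes on chromosome 12 that are known only by Gm numbers, among them Gm8300. Other higher runs were Zscan4a to Zscan4f, Tcstv1 with its neighbours, Usp17la, Usp17lb and Usp17le with Trim12c, Krt7 with Krt8 and Krt18, Irs2 with Col4a1, Col4a2 and Rab20, Rhox5 with Rhox6, Rhox9 and Rhox13, and Gbp3 with Gbp2b and Gbp2. The forkhead genes formed another, Foxq1, Foxf2 and Foxc1. Gbp2b had no read in WT and was at least 117-fold higher against 3 reads over the group. The lower runs were Islr2 with Pml and Stoml1, Oas1g with Oas1a and Oas1d, Kcnh2 with Nos3 and Atg9b, Dnah8 with Glp1r and 1700097N02Rik, and Olfr985 with Tmem225 and Olfr986. Many runs hold gene copies that could share reads. On the X chromosome 54 of 506 tested genes were higher (10.7%) and 5 lower (0.988%), against 4.74% higher among 13799 autosomal genes.

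**Figure D3:**
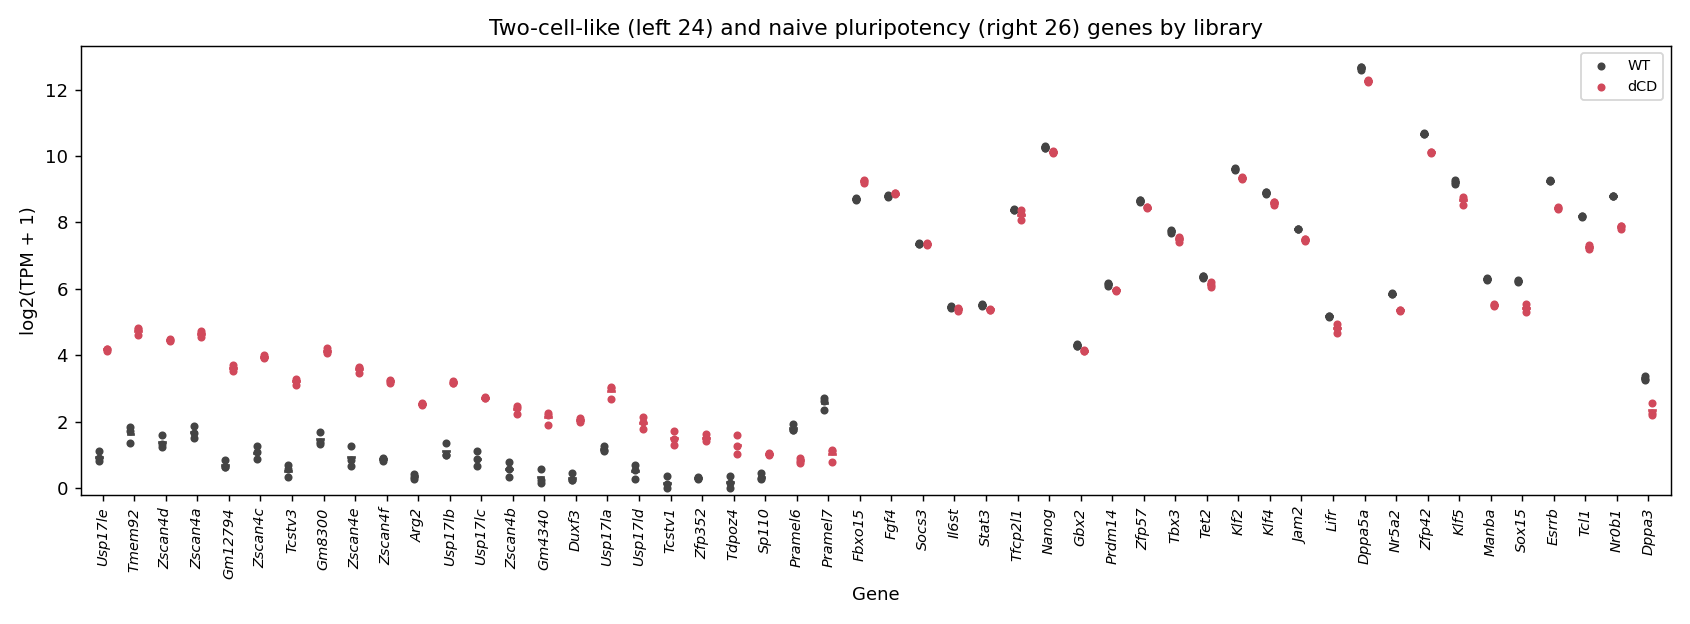
Level of two-cell-like and naive pluripotency genes (y axis, log2 of TPM + 1) by gene, with 1 point per library and lines at the means. Two-cell-like genes sit higher in dCD, and naive genes sit slightly lower or level.

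Naive pluripotency genes, those that keep stem cells in the state of the early epiblast, fell slightly but widely. Of 26 tested 21 fell and 2 rose at the adjusted p alone, none by 2-fold, and the median was -0.30. Their summed level ran from 14887 to 15348 TPM in WT and from 11699 to 12171 TPM in dCD. The orphan receptor Esrrb was at 618, 612 and 603 TPM in the WT libraries and at 347, 342 and 353 TPM in those of dCD (log2 fold change -0.81, adjusted p = 3.13e-08), and Nr0b1 441, 446 and 443 against 224, 237 and 238 TPM. Nanog fell by 0.14 and Klf2 by 0.28. The exceptions were Fbxo15, which rose by 0.54, and Fgf4, which rose by 0.07. Of 17 general pluripotency genes 9 fell and 3 rose at the adjusted p alone, with a median of -0.12, and Sox2 went from 1217, 1227 and 1261 TPM to 731, 708 and 764 TPM. The 5 stem cell markers summed to 5980 to 6049 TPM in WT and 4437 to 4516 TPM in dCD, so both lines kept high levels of the genes that define the cell type.

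Genes of the later, formative and primed states were split. Of 19 tested 5 rose and 1 fell at least 2-fold, and the median was 0.07. The homeobox gene Otx2 was at 21.1, 22 and 22.7 TPM in the WT libraries and at 65.1, 64.3 and 63.7 TPM in those of dCD, and Sox4 had a log2 fold change of 1.73, while Fgf5 was at 0.04 without passing the test. Etv4, an ETS factor downstream of ERK, fell from 86.7, 87.7 and 84.2 to 22.4, 21.3 and 20.9 TPM. The ERK feedback inhibitor Spry4 fell from 46.6, 48.4 and 46.6 to 12.1, 11.9 and 12.3 TPM. Of 19 MEK-ERK feedback genes 2 fell and 2 rose at least 2-fold, and 11 fell and 4 rose at the adjusted p alone (median -0.20). The 2 that rose at least 2-fold were Phlda1, with a log2 fold change of 1.71, and Ier3, with 1.01. The medium of both lines held a MEK inhibitor.

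Immediate early genes, which respond first to stimulation, were higher in many cases. Of 19 tested AP-1 and immediate early genes 9 rose at least 2-fold, 12 rose and 3 fell at the adjusted p alone, with a median of 0.89. Jun was at 6.33, 6 and 6.90 TPM in the WT libraries and at 40.3, 41.7 and 42.1 TPM in those of dCD, Fosl2 0.239, 0.201 and 0.179 against 8.16, 7.05 and 8.13 TPM and Atf3 1.25, 2.22 and 1.31 against 14.7, 13.5 and 14.7 TPM. Fos had a log2 fold change of 1.41 and Junb 1.38, while Myc fell by 0.20. The AP-1 motif TGANTCA was in 7.85% of 624 promoters of genes called higher, in 4.86% of promoters of tested genes and in 7.81% of all promoters. TATAAA was in 13% of the promoters of genes called higher, in 7.25% of tested ones and in 13.6% of all promoters. For CATTCC these shares were 13.1%, 12.3% and 14.7%. In promoters of genes called lower TATAAA was in 9.3% and CATTCC in 18.6%. The 4 motifs searched can overlap, since TATAAA can lie within a CArG box.

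Signalling genes moved in both directions. Among 33 Nodal, TGF-beta and BMP genes 9 rose and 1 fell at least 2-fold, with a median of 0.32. The ligand Bmp2 was at 0.651, 0.662 and 0.795 TPM in the WT libraries and at 6.84, 7.64 and 7.33 TPM in those of dCD, Tgfb2 had a log2 fold change of 2.44, and the BMP antagonist Nog 2.41. Nodal itself was at 0.07 without passing the test, and the activin subunit Inhbb fell by 1.72 on the log2 scale. Of 23 Wnt genes 6 rose and 1 fell at least 2-fold. The inhibitor Dkk1 rose from 0.0530, 0.0668 and 0.194 TPM to 8.35, 7.87 and 7.41 TPM, whereas Notum, an enzyme that inactivates Wnt ligands, fell from 44.5, 44.9 and 42.9 to 6.93, 6.47 and 6.97 TPM. Of 18 retinoic acid genes 6 rose at least 2-fold and none fell by that much, with a median of 0.66. The nuclear receptor genes Nr2f2 and Nr2f1 had log2 fold changes of 1.97 and 1.26, and the retinoid-degrading enzyme Cyp26b1 had 1.41.

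Genes of later lineages rose in part. Of 18 tested primitive streak and mesoderm genes 5 rose at least 2-fold, and of 16 neural ectoderm genes 5 did, with none lower by that much. The streak ligand Wnt3 went from 0.0418, 0.185 and 0.102 to 2.55, 2.72 and 2.43 TPM, and Irx3, a neural homeobox gene, from 1.40, 1.23 and 1.54 to 7.94, 8.60 and 10.5 TPM. Nes, the intermediate filament nestin of neural progenitors, was already at 20.1, 17.5 and 18.9 TPM in the WT libraries and at 39.2, 38.1 and 40.2 TPM in those of dCD. Of 39 Hox genes in the list 14 reached the minimum, with a median log2 fold change of 0.58 over those tested members only. Among them Hoxb9 rose by 1.12 on the log2 scale.

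Imprinted genes and the insulin-like growth factor axis were led by a linked pair. Of 39 tested 10 rose and 2 fell at least 2-fold, with a median of 0.13. H19, a maternally expressed noncoding RNA, was at 9.91, 11 and 12.1 TPM in the WT libraries and at 309, 292 and 294 TPM in those of dCD (log2 fold change 4.64, SE 0.0619, adjusted p = 1.37e-09). Igf2, the paternally expressed growth factor next to it, was at 3.79, 3.84 and 3.84 TPM in the WT libraries and at 75.7, 65.8 and 70.4 TPM in those of dCD (log2 fold change 3.89, SE 0.0549). The 2 genes, which share enhancers and are normally expressed from opposite parental copies, were thus both higher in every dCD library. Other rises were Igfbp5, an IGF-binding protein, at 2.51, Nnat at 1.99 and Airn, the noncoding RNA at Igf2r, at 1.57. Igf2r itself fell by 0.34, and Peg13 fell by 1.46.

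Germline and meiosis genes moved in both directions, with 7 of 30 higher and 4 lower at least 2-fold and a median of 0.43. Sycp3, of the synaptonemal complex, went from 6.61, 6.03 and 8.20 to 25.2, 26.4 and 22.8 TPM, and the germ cell genes Ddx4 and Dazl had log2 fold changes of 1.28 and 1.22. Aurkc, a meiotic kinase, fell from 21.9, 20.3 and 22.6 to 2.48, 3.05 and 2.52 TPM, and the meiotic cohesin gene Smc1b fell by 1.28. Of 15 DNA methylation genes none changed 2-fold. The cofactor Dnmt3l fell by 0.84, from 570, 563 and 528 to 307, 314 and 306 TPM, and Uhrf1 fell by 0.69.

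Interferon response and antigen presentation genes moved in both directions. Of 22 tested interferon response genes 4 fell and 1 rose at least 2-fold, 10 fell and 5 rose at the adjusted p alone, and the median was -0.13. Oas1a, which makes the activator of RNase L, was at 27.1, 24.4 and 23.4 TPM in the WT libraries and at 3.81, 4.27 and 3.38 TPM in those of dCD, and the RNA sensor Ddx58 fell by 1.30. Of 20 MHC and antigen presentation genes 3 fell and 1 rose at least 2-fold, whereas 4 fell and 7 rose at the adjusted p alone, and the median was 0.14. The class II gene H2-Eb1 fell from 39.0, 40.4 and 37.8 to 5.21, 5.84 and 6.22 TPM, while B2m, the shared light chain of class I, rose from 38.7, 41.3 and 36.0 to 101, 112 and 94.4 TPM. Markers of blood and endothelium summed to 136 to 140 TPM in WT and 103 to 112 TPM in dCD, mostly from Pecam1 and Cd68, with Ptprc, the leukocyte marker, at no more than 0.0113 TPM in any library.

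Among the largest falls were genes of varied function. Myo1f, an unconventional myosin, went from 25.3, 27.4 and 26.9 to 2.93, 3.21 and 3.13 TPM (log2 fold change -2.75, SE 0.0562, adjusted p = 7.09e-09), and Aass, of lysine breakdown, from 18.4, 16.8 and 18.2 to 2.37, 2.03 and 2.10 TPM. Cobl, an actin nucleator, fell from 126, 126 and 123 to 25.3, 24.2 and 24.6 TPM. Inpp5d, a lipid phosphatase of signalling, fell by 2.15 and Trh, a hormone precursor, by 2.24 on the log2 scale. In absolute level, Mylpf, a muscle myosin light chain gene, fell from 461, 469 and 453 to 194, 197 and 190 TPM, in the other direction from the smooth muscle genes. Pml, which builds nuclear bodies, fell from 206, 197 and 197 to 60.2, 56.5 and 59.9 TPM, and Gldc, of glycine breakdown, fell by 1.01.

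Lists of basic cell functions held few 2-fold changes. Of 53 listed ribosomal protein genes 16 rose and 2 fell at the adjusted p alone, against 28.7% and 29.9% of all tested genes. None changed 2-fold, the median was 0.04, and 35 did not pass. Rpl10l, a ribosomal protein paralog outside that list, was at 177, 188.5 and 187.5 TPM in the WT libraries and at 527, 547 and 538 TPM in those of dCD (log2 fold change 1.54, SE 0.0304, adjusted p = 6.33e-09). The cell cycle list had 1 of 31 genes higher at least 2-fold, the cyclin gene Ccnd2 at 1.45, and a median of -0.02. Glycolysis and hypoxia genes had a median of 0.00 and cholesterol synthesis genes 0.12, each with 1 member higher by 2-fold. Of 28 p53 targets and CDK inhibitors 5 rose at least 2-fold: Cdkn2b, an inhibitor of Cdk4 and Cdk6, at 1.68, the death receptor Fas at 1.60, Perp at 1.5, Plk2 at 1.35 and Pmaip1 at 1.30. Trp53 fell by 0.21. Of 16 heat shock genes 2 rose at least 2-fold, the small chaperone Cryab, from 2.93, 2.74 and 1.19 to 56.2, 53.4 and 51.0 TPM, and Hspb2 beside it at 2.25. At the adjusted p alone 11 heat shock genes rose and 1 fell, with a median of 0.21. The 29 pausing and elongation factors held no 2-fold change, with Ctr9, of the Paf1 complex, highest at 0.70.

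**Figure D4:**
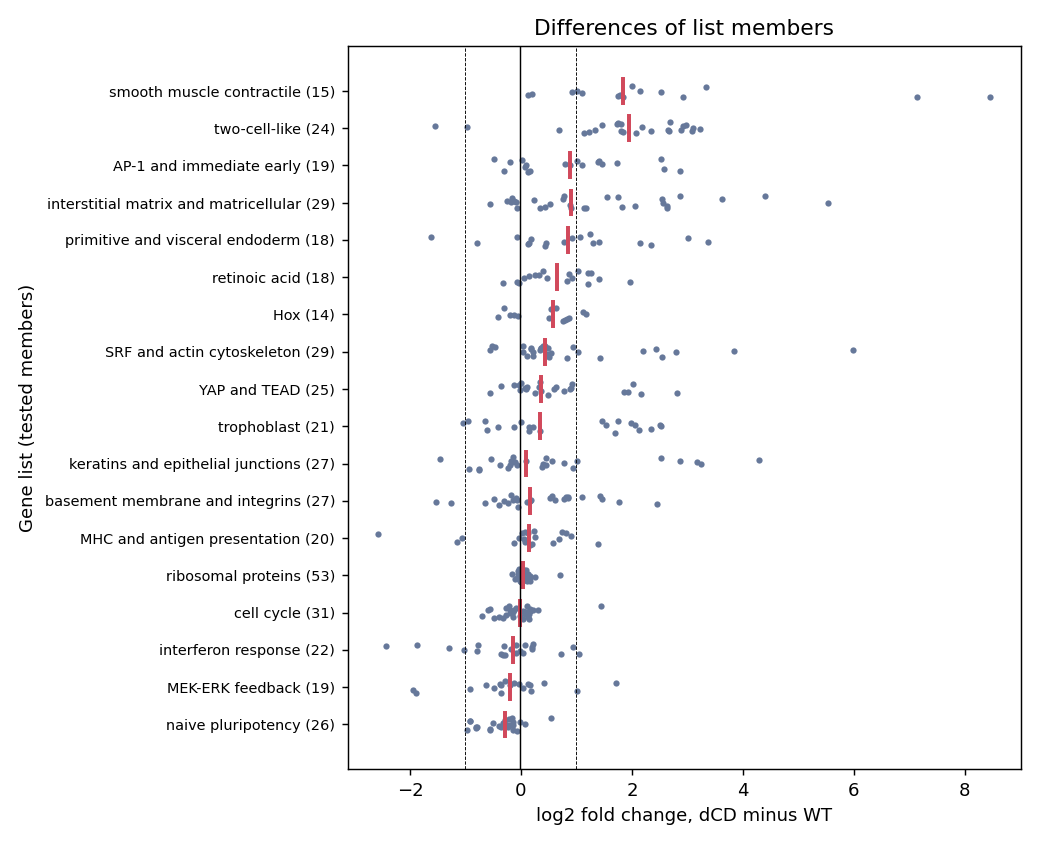
Log2 fold changes of dCD against WT (x axis) for the tested members of each gene list (y axis), with 1 point per gene and a line at the list's median. The smooth muscle and two-cell-like lists have the highest medians (1.83 and 1.95), and the naive pluripotency list has the lowest (-0.30).

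The dKO line was set beside dCD with a direct test in 1 fit of the 9 libraries. At least 2-fold, 1667 genes (10.7%) differed between dCD and dKO, 1191 higher (7.68%) and 476 lower (3.07%) in dCD, and 70.4% differed at the adjusted p alone. Of the latter 40.1% were higher in dCD, which became 51.6% after median-ratio scaling between libraries. The comparisons of dCD and of dKO with WT share the WT libraries, so their values are given side by side. Acta2 measured 101, 106 and 93.6 TPM in dKO, below dCD by 2.37 on the log2 scale (adjusted p = 4.97e-11), and Zscan4d measured 2.83, 3.18 and 3.09 TPM. H19 measured 4.03, 3.37 and 3.54 TPM in dKO, each below the lowest WT library, whereas Igf2 measured 175, 174 and 165 TPM, above dCD. The pair thus had opposite order in the mutant lines. Notum measured 157, 150 and 153 TPM and Islr2 161, 154 and 158 TPM in dKO, both above WT and far above dCD. Peg10 (adjusted p = 0.906) and Actc1 (adjusted p = 0.330) did not pass the direct test, with log2 differences of -0.01 and 0.16. Dnmt3l measured 3.85, 4.91 and 3.74 TPM in dKO, and Tcl1 8.26, 7.84 and 7.55 TPM against 153, 145 and 159 TPM in dCD.

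**Figure D5:**
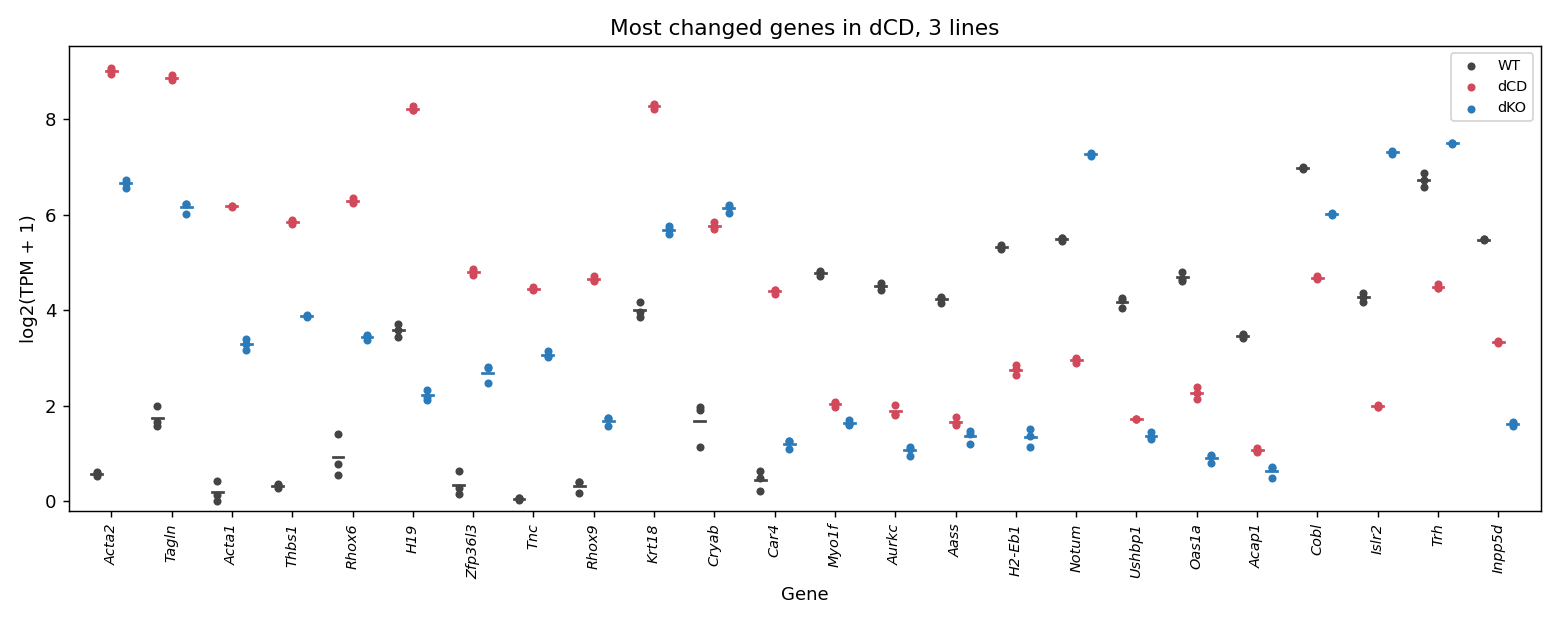
Level (y axis, log2 of TPM + 1) in the 3 lines of the 12 genes with the largest rises and the 12 with the largest falls in dCD among the named genes, with 1 point per library and a line at each mean. Acta2 is highest in dCD, and Notum, Islr2 and Trh are lowest in dCD and highest in dKO.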

How the data were processed

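The deposited table gives, per gene and library, a TPM value that the authors computed, with a gene length. HISAT2, featureCounts and DESeq2 (no versions) and the build mm9 are named in the submitters' processing notes, without their roles. The annotation and strand setting are not given in the sources. As the strand setting is unknown, reads of overlapping genes cannot be told apart. TPM multiplied by length gave whole reads within 0.01 in every library, which gave the depths.

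The test was limma 3.58.1 (R 4.3.3, lmFit and eBayes with trend) on log2(TPM + 1) for genes at 1 TPM or more in 3 or more of the 6 libraries, two-sided, with Benjamini-Hochberg adjustment over all 15513 genes. The pseudocount of 1 understates changes of low genes. Changed at least 2-fold means an adjusted p under 0.05 and a log2 fold change of at least 1 in size. The dCD and dKO lines were compared in 1 fit of 9 libraries. Python 3.11.15, pandas 2.3.3, numpy 2.4.6 and matplotlib 3.10.9 made the tables and plots. The fit was tested on simulated data with known changes.

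The members and the 42 gene lists were chosen with earlier results of these data known. Named genes were Kmt2c and Kmt2d, the 12 highest and 12 lowest log2 fold changes at 10 TPM or more, the 8 largest rises and falls in TPM, up to 5 members per list (3 where none passed 2-fold) and runs of 3 or more neighbours, all with libraries that did not overlap for the 2-fold genes and skipping Gm, Rik and clone symbols among the largest changes. Further members and markers were named after their values were seen. A result that the rule would name is not reported here. Alternatives were other pseudocounts, minimums and scalings, voom on recovered reads, a replicate block and leaving out each library. Promoters came from RefSeq (GRCm38.p6), and no other coordinates are printed because the files use mm9. The other assays of the series were not analysed here.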

Additional observations from a re-analysis of the deposited data

How the results depend on the processing

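Of the 243 named genes, 242 kept their direction and their side of the threshold under every alternative that gave them a value; a minimum of 5 TPM gave values for 180. The exception was Kmt2d, which passed no test: its log2 fold change of -0.08 turned to 0.023 without dCD replicate 2 (adjusted p = 0.554) and ran from -0.13 to 0.023 over the libraries left out.

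Counts of genes changed at least 2-fold depended on how low values were handled. The 1118 genes became 664 at a minimum of 5 TPM, which tests fewer genes, and 1754 with voom on recovered reads. The higher genes became 413 at a minimum of 5 TPM, and the lower genes 632 with a pseudocount of 0.1 and 681 with voom. Of the 1118 genes, 1116 were also called with voom and 663 at the minimum of 5 TPM. For the 214 named genes changed at least 2-fold, the median size of the log2 fold change was 1.78, and 2.68 with voom. Leaving out each library in turn gave 1118 to 1135 genes changed at least 2-fold, 740 to 758 higher, 360 to 387 lower, and 8295 to 8572 past the adjusted p alone. The count between dCD and dKO ran from 1677 to 1708. Of 1260 list counts compared, 64 moved by over 1.5 times.

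Deviations of same-numbered WT and dCD libraries correlated at -0.019, 0.043 and -0.039, and those of differently numbered pairs at -0.071 to 0.079. These values cannot decide whether libraries of 1 number shared a culture or day, which the labels do not say. A fit with the replicate number as a block called 1120 genes at least 2-fold and 8701 at the adjusted p alone. Values near 1 TPM rest on few reads and are the least certain.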

Other observations

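Small nucleolar RNA genes, whose products guide modification of ribosomal RNA, were lower at least 2-fold in dCD for 9 of 76 tested genes (11.8%), against 2.42% of all tested genes. At the adjusted p alone 13 of them (17.1%) were lower by limma and none was higher, against 29.9% lower and 28.7% higher among all tested genes, and their median log2 fold change was -0.17. Snord49a had a mean of 29.6 TPM in WT and 9.49 TPM in dCD (log2 fold change -1.54), and Snord118 a mean of 6.95 and 2.09 TPM (log2 fold change -1.38). These short RNAs mostly lie within introns of other genes and were measured in RNA selected by its poly(A) tail. As the genes are short, a few TPM can stand for only a few reads, and fold sizes are then uncertain. Gm23442, called lower at least 2-fold, was at 1.92, 1.21 and 3.52 TPM in the WT libraries and at 0, 0 and 1.32 TPM in those of dCD. The share of 2-fold calls may therefore reflect low counts, which was not tested.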
